A study of Mus musculus with 4 samples.

Results

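Isolated DHX9 peaks are peaks with no close neighbour on their strand, whether or not the gene held further peaks. They were chosen by measured spacing: an autosomal peak was taken when its midpoint lay inside the span of a protein-coding gene of the mouse build mm10 and more than 10 kb from the midpoint of every other peak on the same chromosome and strand. Of 43106 peaks in the list, 40279 lay on an autosome inside a protein-coding gene, and 2184 of these were isolated, which is 5.42% (exact Clopper-Pearson 95% interval 5.2 to 5.65%, covering counting error only). The binding of DHX9 was mapped by FLASH, which crosslinks RNA to protein with ultraviolet light, pulls the protein down with an antibody and sequences the attached RNA with its strand. The cells were neural progenitors kept in EGF and FGF2. They derived from male embryonic stem cells, line WT26, strain C57BL/6x129sV. All groups shared this single cell line, and the labels name no engineered allele and no drug. The DHX9-Rb antibody and the rabbit control IgG-Rb each had 2 replicate libraries, A and B. The 4 libraries gave 1 list of positions with no height, count or score per peak and no value per library. Depth was therefore unknown, replicate error could not be computed, and every comparison below is a description of this list with no test. A gene without a peak may have been little transcribed, since expression was not measured, and in bulk material fewer cells with a transcript and less transcript per cell cannot be told apart.

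DHX9, also known as RNA helicase A, unwinds double-stranded RNA and RNA in complexes with DNA, and it lies mainly in the nucleus. Double-stranded stretches form in long nuclear transcripts where repeats of opposite orientation pair, in the hairpins from which microRNAs are cut, and in the folded stems of small nucleolar RNAs. Small nucleolar RNAs guide the modification of ribosomal RNA and are mostly cut out of the introns of host genes, many of which encode ribosomal proteins or translation factors.

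A few isolated peaks lay on elements whose sequence was at hand, and these show some of the elements that an isolated peak covered. The RNA sequences are mature microRNAs from RefSeq (GRCm38.p6, the assembly of mm10), 5′ to 3′, with the seed at bases 2 to 8 in capitals. The peak at chr5:138165789-138165873 (minus strand), inside Mcm7, a replicative helicase gene, covered 19 of the 21 bases of miR-106b-5p. The peak at chr13:63301099-63301220 (plus strand), inside Aopep, which encodes an aminopeptidase, reached 8 of the 23 bases of miR-24-1-5p. It also reached 22 bases of the hairpin of Mir3074-1, annotated on the other strand, and none of its mature miR-3074-5p. The seeds differed.
miR-106b-5p: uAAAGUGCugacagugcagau
miR-24-1-5p: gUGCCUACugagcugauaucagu

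The DNA sequences are RefSeq promoter windows (250 bases before to 50 after an annotated start, GRCm38.p6), written 5′ to 3′ on the window's strand with the bases under the isolated peak in capitals. They are shown because these peaks lay at or shortly before an annotated start, which follows the first 250 bases of a window. The windows with the longest overlap were those of Adgrl3, an adhesion receptor gene (chr5:81021343-81021642, plus strand, 169 bases under the peak), and Sh2b3, which encodes a signalling adaptor (chr5:121836055-121836354, minus strand, 149 bases). In both the peak and the window were on the same strand. The fourth by overlap belonged to the predicted gene Gm42135 (chr5:101947554-101947853, plus strand, 112 bases), within Wdfy3, whose isolated peak was on the minus strand. The covered part of that window carries letters known, as background, from the tRNA-derived B2 family of short interspersed elements, among them GAGTTCAATTCCCAG. No repeat annotation was used here. These 15 bases, searched on both strands, occurred in 36 of 32851 windows (0.11%). They were picked from the Gm42135 window after it was seen, so their presence under an isolated peak is no finding.
Adgrl3: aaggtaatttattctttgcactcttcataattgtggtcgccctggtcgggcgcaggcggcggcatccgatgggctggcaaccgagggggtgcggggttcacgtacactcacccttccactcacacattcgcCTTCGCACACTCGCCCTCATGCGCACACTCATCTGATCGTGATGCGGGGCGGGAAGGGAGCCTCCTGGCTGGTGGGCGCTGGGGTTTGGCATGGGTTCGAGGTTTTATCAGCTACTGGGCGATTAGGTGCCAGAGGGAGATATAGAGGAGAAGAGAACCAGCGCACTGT
Sh2b3: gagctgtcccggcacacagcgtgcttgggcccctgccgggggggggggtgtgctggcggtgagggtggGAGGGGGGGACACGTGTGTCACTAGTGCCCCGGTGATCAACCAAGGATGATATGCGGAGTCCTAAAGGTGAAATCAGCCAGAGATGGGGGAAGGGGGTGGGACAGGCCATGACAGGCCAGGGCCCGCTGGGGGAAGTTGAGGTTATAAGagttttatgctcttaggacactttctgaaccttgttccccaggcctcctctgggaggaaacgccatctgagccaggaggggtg
Gm42135: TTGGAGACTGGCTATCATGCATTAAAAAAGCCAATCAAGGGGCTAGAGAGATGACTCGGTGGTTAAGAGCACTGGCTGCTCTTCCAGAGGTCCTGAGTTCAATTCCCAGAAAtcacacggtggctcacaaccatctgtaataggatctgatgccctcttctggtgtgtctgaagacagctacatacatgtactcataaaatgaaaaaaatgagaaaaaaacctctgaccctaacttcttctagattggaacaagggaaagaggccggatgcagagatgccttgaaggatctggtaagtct

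The spacing that defined the isolated peaks is given as a description only. Their nearest same-strand neighbour lay at a median of 45.9 kb, with 10% closer than 12.4 kb and 10% farther than 689 kb. For 151 peaks (6.91%) it was more than 1 Mb away. The plot of distances shows a single mode well under 1 kb and a long tail, with no gap at the limit: 105 peaks had their neighbour at 9 to 10 kb and 113 at 10 to 11 kb. The 3 peaks just inside the limit lay in Klf12 (10009.5 bases from the neighbour), Wdr33 (10010.5 bases) and Arid4a (10030.5 bases). The 3 just outside lay in Ptprg (9996 bases), Rps13 (9991.5 bases) and Rassf3 (9974 bases). The membership of these 6 peaks therefore turned on a few bases. The rule looked at a single strand, and 47 isolated peaks (2.15%) had a peak of the opposite strand within 10 kb, against 1.93% of the other peaks. Within 1 kb the shares were 0.641% (14 peaks) and 0.194% (74 peaks).

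**Figure D1:**
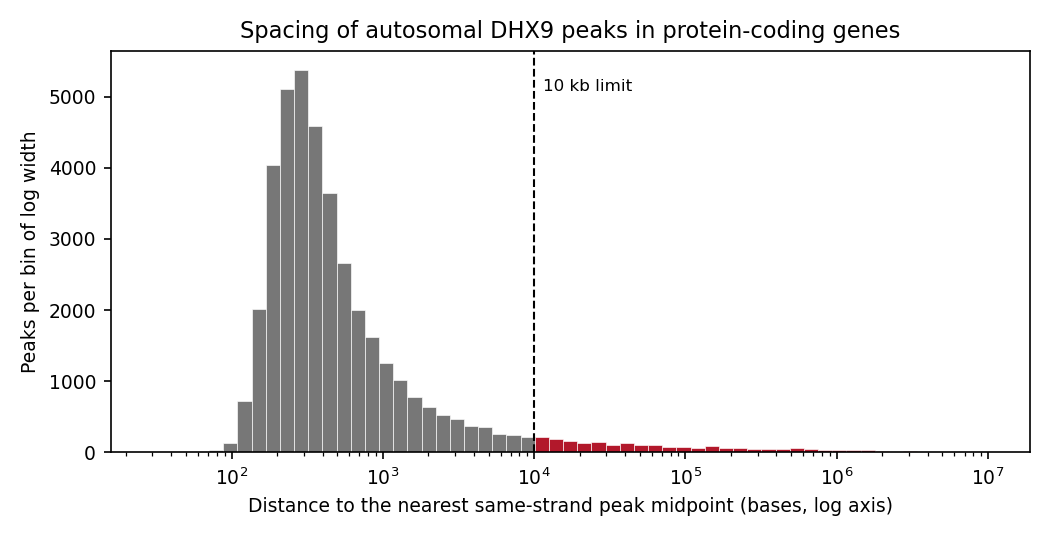
Number of autosomal peaks in protein-coding genes (y axis) by distance to the nearest peak midpoint of the same chromosome and strand (x axis, bases, log scale, bins of equal log width). The 2184 isolated peaks lie beyond the dashed 10 kb line and form the tail of 1 continuous distribution. Red bars hold them, except for the few in the grey bar that the line crosses.

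The most remote peak lay in Ddah1, which encodes an enzyme that breaks down methylated arginine. At chr3:145768141-145768204 it was 64 bases long, 6456 kb from the next plus-strand peak, and the only peak of its gene. The next were single peaks in Lyrm4, an iron-sulphur cluster assembly gene (6084 kb), the zinc finger gene Zfp874b (4925 kb), Lyn, a Src family kinase gene (4906 kb), Vwc2 (4599 kb), Gen1, a nuclease gene of homologous recombination (4569 kb), the cadherin gene Cdh18 (4450 kb) and Lpcat1, which encodes a phospholipid acyltransferase (4428 kb). Their lengths ran from 20 bases in Cdh18 to 155 in Lyn, and each was the only peak in its gene.

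Isolated peaks were short. Their median length was 136 bases (95% interval from order statistics 134 to 138) against 155 (154 to 155) for the 38095 other peaks. The quartiles were 112 and 169 bases, against 123 and 204. Peaks under 100 bases made up 15.8% of isolated and 9.05% of other peaks, and peaks over 250 bases made up 6.68% and 13.4%. The isolated median was below that of the other peaks on 19 of 19 autosomes. Neighbouring peaks are not independent, so these intervals are narrower than the true uncertainty.

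Length did not move evenly with distance. Peaks with a neighbour within 200 bases had a median of 136 bases, the same as the isolated ones, though midpoints so close leave little room for long peaks. The median was 169 bases at 200 to 500 bases, 153 at 500 to 1000 bases, and 145, 143 and 142 bases at 1 to 2, 2 to 5 and 5 to 10 kb. Among isolated peaks it was 145 bases at 10 to 20 kb, 134 at 20 to 50 kb, 135 at 50 to 100 kb and 132 (129 to 135) beyond 100 kb. The 592 isolated peaks closest to the limit were thus within a base of the peaks at 1 to 10 kb (median 144). Right at the limit the order turned, with medians of 133 bases for the 105 peaks at 9 to 10 kb and 147 for the 113 at 10 to 11 kb. The class farthest from the isolated median was that at 200 to 500 bases.

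**Figure D2:**
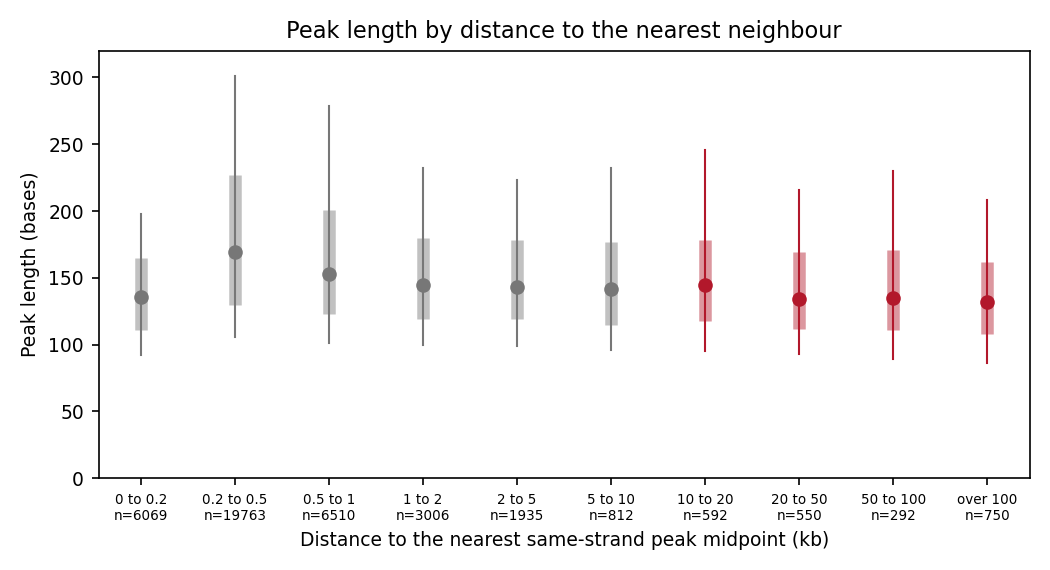
Peak length in bases (y axis) by class of distance to the nearest same-strand neighbour (x axis, kb, with the number of peaks). Points are medians, thick bars the 25th to 75th and thin lines the 10th to 90th percentile; red classes are isolated. The median is highest, 169 bases, at 0.2 to 0.5 kb and lies between 132 and 145 bases in the 4 isolated classes.

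Within the same gene the gap in length was smaller. Among peaks with 1 protein-coding host, 653 genes held both kinds. The gene's median for isolated peaks was below its median for other peaks in 378 of them (57.9%), above it in 268 and equal in 7. The median difference, isolated minus other, was -7.5 bases (140 against 150 bases). In the 281 of these genes with at least 10 other peaks it was -8 bases, with the isolated median lower in 167.

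The longest isolated peak, 486 bases at chr8:110953834-110954319, lay in the sialyltransferase gene St3gal2, 17.4 kb from its neighbour. Peaks of 476 bases followed in Sec22a, a vesicle transport gene, and in Cdc27, which encodes a subunit of the anaphase-promoting complex. Kansl1l held 1 of 464 bases, Oga, the gene of the enzyme that removes O-linked N-acetylglucosamine, 1 of 463, and the centriole assembly gene Sass6 1 of 457. At the other end were peaks of 16 bases in the deubiquitinase gene Usp7, 19 in the F-box gene Fbxo40 and 20 in Cdh18. Those in Usp7 and Fbxo40 were on the strand opposite to the gene.

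Host genes were read from the 2156 isolated peaks that lay in exactly 1 protein-coding gene. The other 28 lay in 2 or more such genes; 2 of these, in the clustered protocadherin genes of chromosome 18, were shared by 21 genes. The 2156 peaks lay in 1726 genes, of which 1423 held 1 isolated peak, 222 held 2, 61 held 3, 8 held 4 and 12 held 5 or more. In 1067 genes every peak was isolated, and in 942 of them there was a single peak. The other 659 also held peaks with close neighbours. An isolated peak was thus the only peak of its gene in 942 of 2156 cases (43.7%), a share the spacing rule itself favours. Seen from the genes, 972 had exactly 1 peak, counting those with 1 protein-coding host, and all but 30 of these peaks were isolated. The nearest neighbour of 1166 isolated peaks (53.4%) lay in the same protein-coding gene, and that of 1018 did not.

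Counted by peak, the host genes were about as long as those of other peaks: the median span was 86.7 kb for isolated and 80.6 kb for other peaks, with upper quartiles of 197 and 201 kb. With the list cut to peaks of its median length or longer, that order turned (76.6 against 80.6 kb). Counted once each, genes with an isolated peak had a median span of 67.1 kb, against 30.7 kb for the 2134 genes with peaks of which none was isolated and 17.5 kb for all 20665 autosomal protein-coding genes. A span under 20 kb leaves little room for peaks 10 kb apart, so the rule bears on this contrast. Genes whose only peak was isolated had a median span of 37.5 kb. Counted by peak, the 1214 isolated peaks with others in their gene had hosts of 134 kb.

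Of all autosomal protein-coding genes, 8.68% held an isolated peak, counting genes that share one, and of those with a peak 44.7%. By span, the share among all genes climbed from 1.27% of genes up to 10 kb to 16.7% at 50 to 100 kb and 37% beyond 500 kb. The share of peaks that were isolated showed no such climb: 8.91% in genes up to 10 kb, 4.77% at 20 to 50 kb, 6.16% at 100 to 200 kb and 4.4% beyond 500 kb. Beyond 500 kb, 17 of 187 isolated peaks were the only peak of their gene. The isolated median length stayed between 132 and 147 bases in these 7 span classes, and that of other peaks between 153 and 159.

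**Figure D3:**
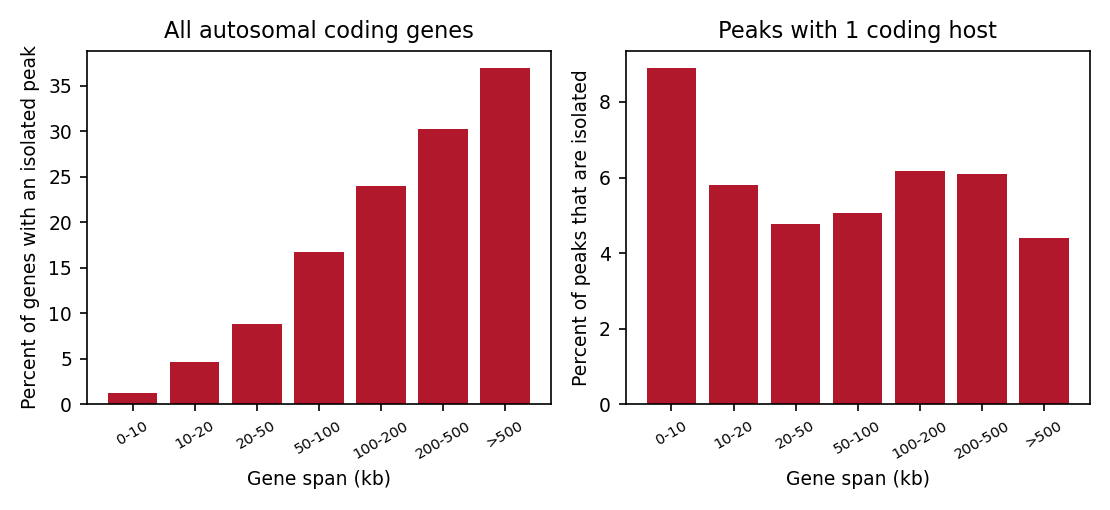
Left, percent of all autosomal protein-coding genes with 1 or more isolated peaks; right, percent of peaks that are isolated; both by gene span in kb (x axis), for peaks with a single protein-coding host. The left share climbs from 1.27% to 37%, while the right share stays between 4.4% and 8.91%.

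Isolated peaks were spread evenly along their genes, and other peaks leaned to the start. Position was measured from the gene end at which a transcript of the peak's strand would begin. The median isolated peak lay at 48% of the span and the median other peak at 37%. Of isolated peaks, 21.8% lay in the first 20% of the span and 19% in the last 20%. Of other peaks, 30.5% and 11.7% did. With each gene counted once, the medians were 48.6% and 43.2%. The first 20% held 19.1% and 19% of the genes, the next 20% held 21.1% and 27.2%, and the last 20% held 17% and 11.9%. A gene's median position is drawn toward the middle, so this count is blunt at both ends. By span class, the gap was widest in genes beyond 500 kb, with medians of 46.8% for isolated and 20.7% for other peaks.

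**Figure D4:**
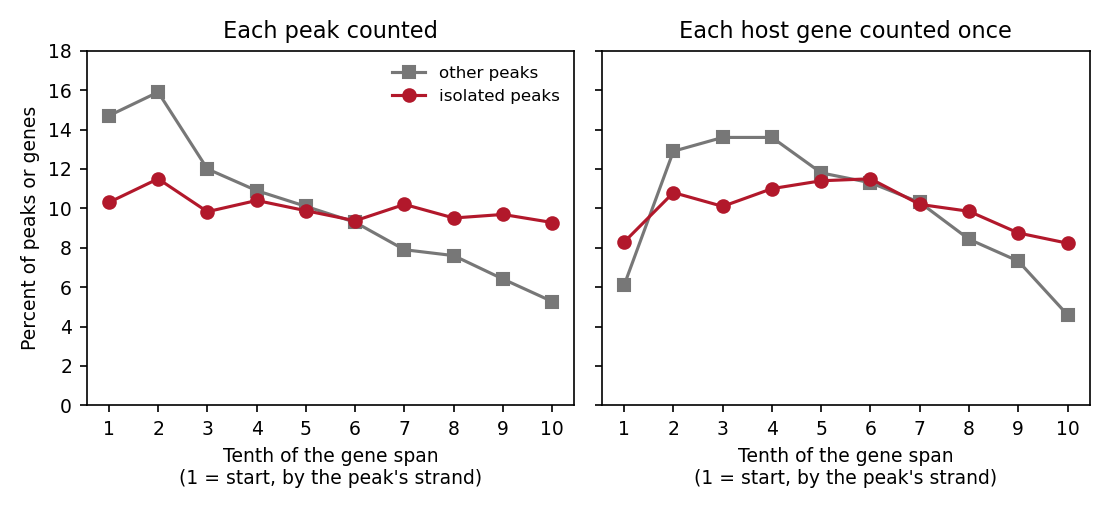
Percent of peaks (left) or of host genes, each at the median position of its peaks (right), in 10 equal parts of the gene span from its start by the peak's strand (x axis). On the left, isolated peaks (red) lie between 9.28% and 11.5% in every part, and other peaks (grey) drop from 15.9% at 10 to 20% of the span to 5.27% in the last part.

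In genes that held both kinds, the isolated median was nearer to the gene's end than the median of the others in 381 of 653 (58.3%). Of the 935 isolated peaks in these genes, 42.1% lay beyond the last of the other peaks, 27.5% before the first and 30.4% among them. The lean was larger where there were more peaks. Among the 281 genes with at least 10 other peaks, the isolated median was nearer to the end in 189 (67.3%) and nearer to the start in 92. Of the 469 isolated peaks in these genes, 184 (39.2%) lay beyond the last of the other peaks, 64 (13.6%) before the first and 221 (47.1%) among them. The outermost peak of a gene has a neighbour on 1 side, and other peaks were denser toward the start; the part of both in this lean was not tested.

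The 12 genes with the most isolated peaks spanned 163 to 2197 kb. Auts2, which encodes a chromatin-associated regulator of neural development, held 10 among 281 peaks over 1106 kb (chromosome 5). They lay between 25.8% and 97.2% of its span and were 86 to 298 bases long. The heparan sulphate proteoglycan gene Gpc6 held 8 of its 20 peaks, at 105 to 133 bases all shorter than the median of 190 bases of its other 12. Those 12 lay within the first 15.7% of the span, while 5 of the isolated peaks lay at 20% or beyond, up to 70.4%. Lsamp, an adhesion gene of the IgLON family and with 2197 kb the longest of the 12, held 7 of 138 peaks, spread from 5.86% to 76.1%.

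Atrnl1 held 7 of 20 and Nckap5 6 of 81. There were 5 each in the delta-catenin gene Ctnnd2 (131), the receptor phosphatase gene Ptprg (44), the sulphotransferase gene Hs3st5 (69), the tetraspanin gene Tspan5 (8) and the forkhead transcription factor gene Foxn3 (5). Among these 12 genes the total ranged from 5 to 281 peaks.

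**Figure D5:**
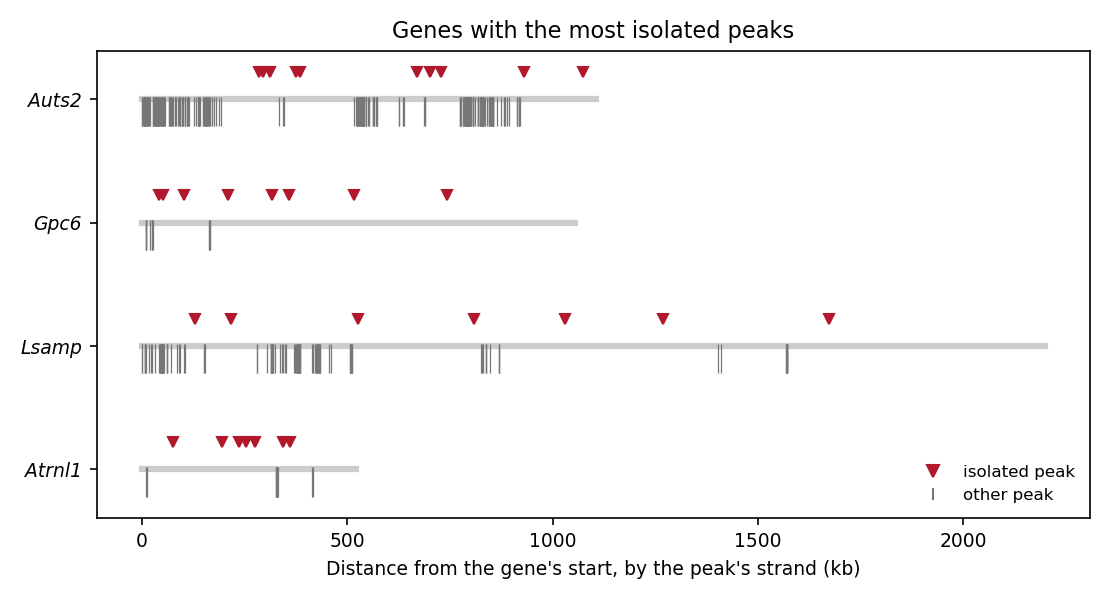
Peaks of the 4 genes with the most isolated peaks, by distance in kb from the gene's start by the peak's strand (x axis); grey bars are gene spans. Red triangles are isolated peaks (10, 8, 7 and 7 from top to bottom) and grey ticks other peaks. In Gpc6 the other peaks end at 15.7% of the span, with isolated peaks beyond, while in Auts2 other peaks reach 83.2%.

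Among genes with an isolated peak, 4 of the 5 richest in peaks held 1 or 2, and Auts2 was the fifth. The transcription factor gene Npas3 had 2 of 661, at 65.5% and 85.6% of its span and 136 and 308 bases long. Maml2, a Notch coactivator gene, had 1 of 374, Nfia, a nuclear factor I gene, 1 of 339 at 91.2%, and the metabotropic glutamate receptor gene Grm5 2 of 286. In contrast, 20 genes had 3 or more peaks that were all isolated. Foxn3 had 5, from 14.3% to 82.1% of its 374 kb, and Kansl1l had 4. The others named here had the longest spans among those with 3. Rbfox1, a splicing regulator gene of neurons, had 3 over 1528 kb, as had the teneurin gene Tenm3 over 1297 kb, the kainate receptor gene Grik2 over 696 kb and the scaffold gene Magi1 over 608 kb. The 3 of Magi1 lay within 61.8% to 66.6% of its span, each 14.7 kb from the next, so isolated peaks could still be near each other on the scale of a long gene.

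Small RNA genes lay under 21 isolated peaks, or 0.962%, against 86 of the 38095 other peaks (0.226%). The share varied with distance on both sides of the limit: it was 1.23% (10 of 812) for other peaks at 5 to 10 kb, 0.342% to 0.727% in the isolated classes from 10 to 100 kb, and 1.6% beyond 100 kb. The 22 overlaps took in 12 small nucleolar RNA genes, 3 guide RNA genes (a RefSeq class that holds small Cajal body RNAs), 3 microRNA genes, 2 small nuclear RNA genes and 2 tRNA genes. Overlap here meant at least 1 shared base. In 14 of the 22, 1 or both ends of the peak lay within 10 bases of an end of the small RNA gene. For other peaks this held in 42 of 88 overlaps. Both ends did so in 4 of 22 overlaps of isolated peaks and 15 of 88 of other peaks. The small RNA gene was covered whole in 11 of 22 and 49 of 88, so these traits were not particular to isolated peaks. The midpoint of the peak at chr1:9942466-9942552 lay within Mcmdc2, whose strand was unknown, and also within Snhg6, a small nucleolar RNA host gene. This peak of 87 bases covered whole Snord87, a box C/D small nucleolar RNA gene of 74 bases. Its ends lay 4 and 9 bases outside Snord87. The peaks over Gm22748, of 136 bases within the ornithine decarboxylase gene Odc1, and over LOC115490268, of 71 bases within Rpl21, also ended within 10 bases on both sides.

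Of the 15 overlaps with a small nucleolar or guide RNA gene, 6 were inside ribosomal protein genes: Snord83b in Rpl3, LOC115490270 in Rpl6, LOC115490268 in Rpl21, Snora7a in Rpl32, AF357399 in Rps16 and Snora78 in Rps2. In each of these 6 hosts it was the only peak, which the rule favours in short genes. Of isolated peaks in genes up to 10 kb, 93 of 93 were the only peak, counting those with 1 protein-coding host. So short a span leaves no room for a second peak of the same strand beyond 10 kb. Snora78 was covered over 134 of 157 bases, and its peak was on the minus strand, opposite to Rps2 and on the strand of Snhg9, a small nucleolar RNA host gene that overlaps it. Other hosts were the heat shock gene Hspa8 (Snord14e, 91 of 91 bases), Phb2, which encodes a prohibitin, and the condensin gene Ncapd2 (Scarna10, 71 of 71 bases). In 13 of the 15 the host held no other peak, a count to which the rule contributes through the short hosts. Of the 15 small RNA genes, 10 were covered whole. Whether the small RNA itself or the intron around it was bound is not told by a position, and the median peak length over these 22 overlaps, 123 bases, was the same as for other peaks on small RNA genes.

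Promoter windows lay under 14 isolated peaks (0.641%) and 132 other peaks (0.347%). On 9 of the 14 the peak was on the strand of the window. Besides Adgrl3 and Sh2b3, shown above, they included Gstz1 (110 bases), the tubulin gene Tuba1a (101 bases), Sox11, a neural transcription factor gene (55 bases, 3989 kb from the next peak), and Vim, the gene of the progenitor filament protein vimentin (38 bases of a peak of 333). The peak on the Col4a2 window was on the other strand, that of Col4a1, a collagen gene that runs away from it from the same region. Counted over whole genes, 46 isolated peaks (2.13%) lay within 1 kb of the gene's start and 57 (2.64%) within 1 kb of its end, against 1.16% and 1.18% of other peaks. Other peaks at 5 to 10 kb had shares near those of the isolated ones, 2.24% and 2.36%.

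The shortest genes with a single peak that was isolated were histone genes, whose messages end in a stem-loop in place of a poly(A) tail when made for replication. All 6 named for short span were of this family: H4c14 (0.384 kb), H2bc18, H2ac10, H2ac15, H1f3 and H1f4 (0.782 kb). After this was seen, the family was counted by symbol. Of 67 autosomal histone genes 16 held 19 peaks, and 9 of these peaks were isolated. In 6 of the 9 the midpoint lay within 100 bases of the gene's end, at 25 bases in H2ac10, 40 in H1f5, 50 in H2ac15, 56 in H1f4, 61 in H2bc18 and 71 in H1f3. The exceptions were H2bc4, whose annotated span is 8282 bases, H1f0, a linker histone gene not tied to replication, and H4c14, where the peak lay at 36 bases from the start by its own strand and the gene's strand was not in the table used. Of the other 10 histone peaks, 6 lay in the last 20% of the gene on its own strand. By the peak's strand alone, 7 of these 10 lay in the last 20%. By that same measure 15 of 84 (17.9%) isolated peaks in other genes up to 10 kb did.

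The strand of the host was known for 1681 isolated peaks, from the promoter table. On the opposite strand were 44 (2.62%), against 219 of 29671 other peaks (0.738%). The 44 lay in 42 genes, while the 219 lay in 33. Isolation was counted per strand, so a peak opposite a covered gene can count as isolated, and the part of this in the share was not tested. Of the 44, 23 lay in genes that also held a peak on the gene's strand, as did 148 of the 219. A peak of the other strand lay within 10 kb of 10 of the 44 and 46 of the 219. Another annotated gene lay at 10 of the 44 midpoints and 116 of the 219. The median length of the 44 was 123 bases, against 137 for the 1637 isolated peaks on the host's strand and 182 for the 219. Under 100 bases were 15 of the 44 and 15 of the 219.

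Kansl1l, which encodes a relative of a histone acetyltransferase subunit, held 3 of the 44. They were 116, 158 and 464 bases long and lay on the plus strand of a minus-strand gene, each 16.2 to 16.5 kb from its nearest neighbour. The longest was also within the long noncoding gene Gm46093. The peak of Hhat (chr1:192745567-192745689) covered the small nuclear RNA gene Gm22265 whole, with ends 4 and 3 bases outside it. Polg and Sirt4 held opposite-strand peaks on a tRNA gene and on a small nuclear RNA gene. In Vmn2r29 the midpoints of the peaks on both strands were 0.0025 kb apart, and in Hps3 0.069 kb. Beside these stood genes whose only peak was opposite to them and remote from any other, such as Cntnap5b (322 bases, 2352 kb) and Abhd18 (122 bases, 2409 kb).

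Gene lists were read against the 8.68% of autosomal protein-coding genes that held an isolated peak and the 44.7% of those with any peak. A peak of any kind was present in 4008 of the 20665 autosomal protein-coding genes. Genes for neural adhesion and synaptic organisers, very long with a median span of 800 kb, held one in 20 of 42 (47.6%), or 83.3% of the 24 with a peak. Among all genes with a peak, counting peaks with 1 protein-coding host, 83.3% of those beyond 500 kb held one. At 200 to 500 kb 77.3% did. Lsamp and the protocadherin gene Pcdh9 (4 of 253 peaks) were among those with the most. Regulators of small GTPases held one in 18 of 35 (51.4%), with 3 each in Dock1, Trio and Vav3. That was 75% of those with a peak, and the median span of this list was 258 kb. Counted by peak, 8.83% of this list's peaks were isolated, against 5.42% of all autosomal peaks in protein-coding genes. The share was 7.41% for ribosomal protein genes, 6.67% for cell cycle genes and 4.59% for kinases. It was 3.33% for adhesion genes, 3.2% for chromatin regulators and 1.32% for neural progenitor genes. In the glial list 1 of 5 peaks was isolated. Kinases chosen for length held one in 16 of 30 (53.3%), led by the receptor tyrosine kinase gene Erbb4 with 4 of 25 peaks, then Mast4 and Tnik with 3 each. Among listed kinases with a peak the share was 72.7%, and the median span of this list was 300 kb.

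Chromatin regulators held one in 16 of 33 (48.5%), or 51.6% of those with a peak, and their median span was 108 kb. Of all genes of 100 to 200 kb with a peak, 65.4% held one, counting peaks with 1 protein-coding host. Hdac4, a histone deacetylase gene, had 3 peaks and all were isolated, Kmt2c had 3 of 23, and both peaks of Arid1b were isolated. Among glutamate and GABA receptors 6 of 25 (24%) had one, and among ion channels 5 of 30 (16.7%), with 2 in the potassium channel gene Kcnd2. Of those with a peak, 75% of the receptors and 71.4% of the channels did, at median spans of 395 and 374 kb. Splicing and RNA processing genes stood apart from this. A peak was present in 30 of 32, and 538 peaks in all, but a single gene, Srsf11, held an isolated one (3.33% of those with a peak). The median span of this list was 16.5 kb. Of all genes of 10 to 20 kb with a peak, counting peaks with 1 protein-coding host, 28.1% held an isolated one. The 37 listed ribosomal protein genes, with a median of 3.95 kb, had a peak in 20 and an isolated one in 4: Rpl3, Rpl6, Rpl21 and Rps2. These 4 held no other peak, and spans this short leave no room for another isolated one on the same strand. The list is partial and lacks Rpl32, Rps16 and Rps26, which also held a lone isolated peak. In the cell cycle list, with a median span of 15.3 kb, 7 of 27 (25.9%) had one, or 58.3% of the 12 with a peak. In 5 of these 7 every peak was isolated, as in Kif23. Kif11 held 1 of 5 peaks and Mcm6 1 of 3.

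Of the marker lists, neural progenitor genes had a peak in 16 of 24 and an isolated one in 10 (41.7%). That was 62.5% of those with a peak, at a median span of 29.7 kb. Msi2, an RNA binding protein gene, held 3 isolated of 179 peaks, and Ptprz1 2 of 64. Of 15 mature neuron genes 2 had a peak, and Map2 an isolated one. Glial genes had a peak in 3 of 14, with a lone isolated peak in Pdgfra. Mesoderm, endoderm and fibroblast genes had a peak in 3 of 16 and none isolated, and none of 15 pluripotency genes had a peak. Over all autosomal protein-coding genes, 4008 of 20665 had a peak. The shares of the glial list (21.4%) and of the mesoderm, endoderm and fibroblast list (18.8%) were close to that. The part of gene span or expression in these shares was not tested.

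Across the 19 autosomes the number of isolated peaks ran from 62 on chromosome 19 to 182 on chromosome 2. Their share of peaks ran from 3.47% (2.96 to 4.03%) on chromosome 11 to 9.38% (7.55 to 11.5%) on chromosome 13. Chromosome 11 had 2.9 peaks per protein-coding gene and chromosome 13 had 1.08, while 8.58% and 7.36% of their genes held an isolated peak. Chromosome 18 had the highest share of genes, 17.6%, and its 90 genes included the 21 protocadherin genes that shared 2 peaks.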

How the data were processed

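FLASH libraries of 2 DHX9-Rb and 2 IgG-Rb pull-downs, grouped by sample title, were deposited by the authors as 1 peak list made with PEAKachu, per the file itself. It holds 1-based positions and a strand, and no count or score. The tool Bowtie2 2.2.6 and the builds hg19 and mm10 are named, with no role, per the submitters' processing notes; peaks were read as mm10. Settings and thresholds of the peak caller are not given in the sources used here.

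Genes and sequences came from RefSeq tables of GRCm38.p6, without exons (49997 genes, 21900 protein-coding). The promoter table gave a strand for 17492 of the latter. Distances, spans and positions were computed with Python 3.11.15, numpy 2.4.6 and pandas 2.3.3; the search was checked on simulated peaks. Intervals are exact binomial or order-statistic 95% intervals (scipy 1.17.1). Positions and peak counts per gene used peaks with 1 protein-coding host, and a gene's total included shared peaks.

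The members and the 14 lists were chosen with earlier results of these data known. Named were the genes with the most isolated peaks, the most remote, longest and shortest peaks, hosts richest in peaks or shortest, peaks at the limit, up to 3 members per list, genes with all of 3 or more peaks isolated, and promoter overlaps; some genes the rule names are not reported here. For histone, small RNA and opposite-strand genes the choice followed a look at the values.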

Additional observations from a re-analysis of the deposited data

Results flagged for a closer look

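A pair of sets met the spacing limit but lay outside the comparisons above, and no control level was at hand for either. On autosomes 270 peaks without a same-strand neighbour within 10 kb lay in no protein-coding gene, which is 13.8% of the 1957 autosomal peaks outside such genes. Of these, 150 lay in no annotated gene, 73 in a long noncoding RNA gene and 29 in a small RNA gene, and their median length was 120 bases. On the X chromosome 72 of 752 peaks in protein-coding genes had no neighbour within 10 kb (9.57%, exact interval 7.57 to 11.9%). They lay in 60 genes and had a median length of 136 bases.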

How the results depend on the processing

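Settings that counted each gene once or left out chromosomes 8 and 11 or peaks on small RNA genes were chosen after seeing the data. The share of peaks that were isolated was 7.44% with a limit of 5000 bases, 3.95% with 20000, 6.4% after merging peaks within 50 bases, 9.01% with peaks of the list's median length or longer and 5.82% without chromosomes 8 and 11. Their median length was 133 bases with 20000 and 187 with the longer peaks, by construction in the latter. It was below that of the other peaks in 14 of 14 settings. The host span was 76.6 kb with the longer peaks, where it fell below that of other peaks (80.6 kb) and the cause was not tested, and 67.1 kb with each gene counted once. The share of isolated peaks that were the only peak of their gene was 32.3% with 5000 bases, 56.9% with 20000 and 47.4% with the longer peaks. The median position stayed between 46.3% and 48.8% in 14 settings. The remaining values stayed within their 95% intervals. No paired analysis was possible because the list holds no value per library, and for the same reason no replicate was left out. Depth was unknown.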
